A study of Mus musculus with 3 samples.

Results

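Histones are the proteins around which DNA is wound, and the genes described here are those of the histone clusters and of the linker histones. They were chosen by their symbols in the platform annotation, which begin with H1f, H2ac, H2bc, H3c or H4c and a number, and by having a probe set that carries no other symbol. Of 66 such symbols on the arrays, 29 had a probe set of their own, out of 22180 named genes, and the other 37 were measured only on probe sets shared by several genes. The 29 genes comprised 6 of 17 H2A genes, 8 of 16 H2B genes, 7 of 12 H4 genes and 8 of 9 linker H1 genes. None of the 12 H3 genes had a probe set of its own. H1f0, a linker gene of resting cells, was on no probe set in the annotation used and was not analysed here.

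The study compared 3 cell types with 1 Affymetrix Mouse Gene array each, so there are no replicates, no difference carries a test, and the number of arrays limits the precision. Induced astrocytes (iAs) were derived from fibroblasts of mice that carry a GFAP-GFP reporter, were treated for 25 days with the VCSTO mixture of tranylcypromine, OAC1, valproic acid, CHIR99021 and SB-431542, and were sorted for GFP, so that the promoter of an astrocyte gene chose the cells. Primary astrocytes (pAs) came from the cortex of mice at postnatal day 2, and the mouse embryonic fibroblasts (MEFs) came from embryos at E13.5 and had no treatment. The labels repeat the treatment on all 3 samples, and the paper's methods apply it to the iAs only. Treatment, sorting, time in culture and the animals of origin differ together between the arrays and cannot be told apart.

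An array gives expression as log2 values normalized by robust multi-array average (RMA), so a difference of 1 is a doubling. A gene was counted as higher or lower when it differed by at least 1.5-fold. The values carry no detection calls. A level below its array's median, which was 6.59 for iAs, 6.57 for pAs and 6.53 for MEFs, was therefore taken as no higher than that median, and the fold is given as at least so much. No fold is given where both levels lay below the medians. Levels of different genes come from different probes and are not compared with each other.

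Replication-dependent histone genes lie in clusters, are transcribed mainly in S phase, when new DNA must be packed, and give mRNAs that end in a stem-loop in place of a poly(A) tail. H2A, H2B, H3 and H4 form the core of the nucleosome, and H1 binds the linker DNA between nucleosomes. Linker genes H1f1 to H1f6 lie in the main cluster with the core genes, whereas H1f7, H1f8 and H1f10 lie elsewhere, and H1f10 is made independently of replication. When cells leave the cycle, replication-dependent mRNAs are no longer made in bulk, while some cluster genes can also give polyadenylated transcripts in differentiated cells. Labelling for arrays of this kind usually starts from random primers, by which mRNAs without a tail can be copied too, but the sources used here do not name the primers.

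The gene starts of the lowest member of each measured family are shown because the members of a family share promoter elements, while their levels on these arrays did not move alike. Each sequence gives the 150 bases before the start in RefSeq (GRCm38.p6), 5′ to 3′ on the strand of the gene. Capitals mark CCAAT, the TATA box TATAAA, the octamer ATTTGCAT of H2B promoters, and AAACACA, an element of H1 promoters, on either strand. H4c9 and H1f10 stand for contrast and were chosen after their values were seen.
H2ac15, chr13:21753913-21754062, minus strand: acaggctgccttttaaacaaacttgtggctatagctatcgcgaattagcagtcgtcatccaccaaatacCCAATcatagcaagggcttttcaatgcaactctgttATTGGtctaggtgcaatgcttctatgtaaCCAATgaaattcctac
H2bc12, chr13:22035671-22035820, plus strand: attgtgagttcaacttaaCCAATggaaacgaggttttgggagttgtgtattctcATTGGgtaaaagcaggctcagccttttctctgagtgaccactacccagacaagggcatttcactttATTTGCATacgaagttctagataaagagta
H4c17, chr13:21811596-21811745, plus strand: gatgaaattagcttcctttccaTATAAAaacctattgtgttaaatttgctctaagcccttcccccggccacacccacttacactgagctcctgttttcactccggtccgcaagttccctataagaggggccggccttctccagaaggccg
H4c9, chr13:22041363-22041512, minus strand: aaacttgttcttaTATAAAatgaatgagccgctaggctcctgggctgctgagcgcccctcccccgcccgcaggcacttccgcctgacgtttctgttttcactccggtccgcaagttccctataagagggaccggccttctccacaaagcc
H1f5, chr13:21780626-21780775, minus strand: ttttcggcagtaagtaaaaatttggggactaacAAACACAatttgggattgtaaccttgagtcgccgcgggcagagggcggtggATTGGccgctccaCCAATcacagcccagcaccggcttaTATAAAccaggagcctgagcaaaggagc
H1f10, chr6:87981483-87981632, minus strand: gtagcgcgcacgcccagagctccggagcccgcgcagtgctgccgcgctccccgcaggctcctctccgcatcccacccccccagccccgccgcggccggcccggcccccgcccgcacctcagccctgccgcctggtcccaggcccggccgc

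In the window of 250 bases before to 50 after the start, which 27 of the 29 members had in the table, CCAAT occurred in 6 of 6 H2A and 7 of 7 H2B promoters but in 1 of 6 H4 promoters, against 37.4% of all 32851 windows. The octamer ATTTGCAT was present in 5 of 7 H2B and 3 of 6 H2A promoters and in none of the H4 or linker promoters, against 1.74% of all windows. AAACACA occurred in 4 of 5 linker promoters of the cluster and in none of the 3 outside it, against 7.18%, and TATAAA in 13 of 19 core promoters, against 13.6%. All motifs were searched on both strands. H4c17 and H4c9 share a run of 38 bases just before their starts, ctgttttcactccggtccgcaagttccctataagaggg, which only the H4c18 window also held. These matches describe the letters of the windows and do not show that a factor was bound.

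Core genes with a probe set of their own, none of them an H3 gene, were lower in the astrocyte samples more often than higher. On the 35 distinct shared probe sets, described below, lower ones did not outnumber higher ones. Of the 21 core genes, 8 lay at least 1.5-fold below MEFs in iAs and 3 above, beside 10% of all named genes below and 8.84% above. In pAs, 8 core genes lay below MEFs and 4 above, beside 11% of all named genes below and 12% above. Counts use the deposited values. In iAs the core genes that were lower make up 38.1% of the class, and the median difference of the class was -0.11 in iAs and -0.20 in pAs, with a median of 0.00 over all named genes in both comparisons. These medians include 8 core genes that lay below the array median on all 3 arrays. The core genes that were lower ranged from H2bc12, at least 23.8-fold lower in iAs, to H2ac20, at least 1.19-fold lower, and the H4 genes H4c9 and H4c14 were higher in both astrocyte samples. Both comparisons use the same MEF array. In RNA pooled from many cells, sorted for GFP in the case of iAs, fewer cells in S phase and less histone mRNA per cell cannot be told apart.

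**Figure D1:**
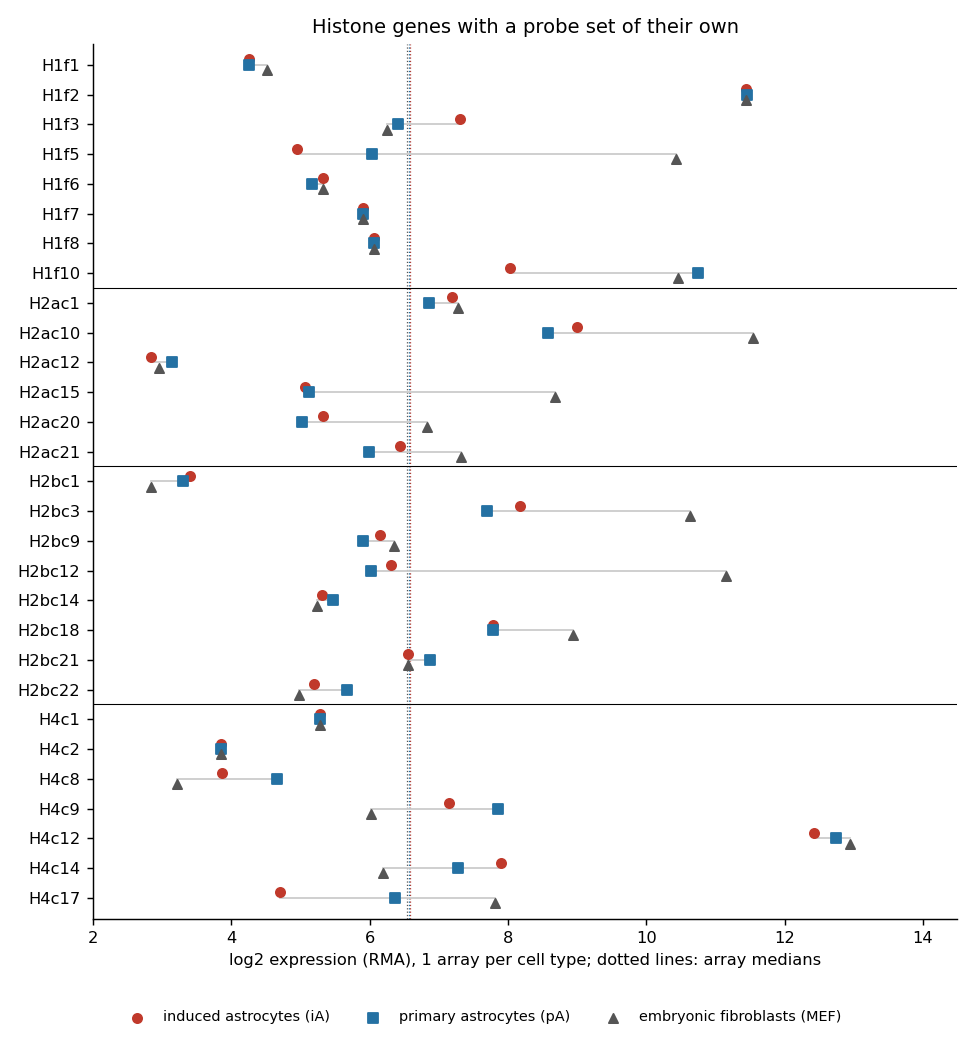
Log2 expression of the 29 histone genes with a probe set of their own in iAs, pAs and MEFs, 1 point per array, with dotted lines at the array medians. H2bc12, H1f5 and H2ac15 lie far to the right in MEFs only, while H1f10 lies to the left in iAs only.

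H2bc12, a core H2B gene, stood at log2 levels of 6.31 in iAs and 6.02 in pAs, against 11.16 in MEFs. The iA level was below the MEF level by at least 23.8-fold, and the pA level by at least 24.1-fold. Only the MEF level lay above the array median. Its divergent neighbour H2ac12, which is transcribed away from it on the other strand, stood at 2.84 in iAs, 3.15 in pAs and 2.95 in MEFs, below the median on each array. H2bc3, an H2B gene whose window also holds the octamer, stood at 8.17 in iAs and 7.70 in pAs, against 10.63 in MEFs. Against MEFs this was 5.48-fold lower in iAs, 7.59-fold lower in pAs, with all levels above the medians. H2bc18, from the smaller Hist2 cluster, stood at 7.79 in both iAs and pAs, against 8.93 in MEFs, 2.21-fold lower in each. The other 5 H2B genes lay within 1.5-fold of MEFs in iAs. H2bc21 stood at 6.56 in iAs, 6.88 in pAs and 6.56 in MEFs. H2bc1, a testis form, H2bc9, H2bc14 and H2bc22 lay below the medians on all arrays, at levels between 2.84 and 6.35. They include H2bc22, which counted as higher in pAs through a difference of 0.69 between 5.67 in pAs and 4.98 in MEFs.

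H2A genes were lower in 4 of 6 cases in iAs and in 4 of 6 in pAs, beside 10% and 11% of all named genes. H2ac15, with CCAAT in its promoter 3 times within the stretch shown, stood at 5.07 in iAs and 5.12 in pAs, against 8.67 in MEFs. The difference from MEFs was at least 4.24-fold for iAs, and at least 4.31-fold for pAs. H2ac10 stood at 9.0 in iAs and 8.58 in pAs, against 11.54 in MEFs, 5.83-fold lower in iAs, 7.79-fold lower in pAs, and with all levels above the medians. H2ac20, of the Hist2 cluster, stood at 5.33 in iAs and 5.03 in pAs, against 6.84 in MEFs. The deposited differences were -1.50 in iAs and -1.81 in pAs, but counted from the medians the gaps were at least 1.19-fold in iAs, and at least 1.20-fold in pAs, short of the threshold. H2ac21, the only member with 2 probe sets, had a mean level of 6.44 in iAs and 6.0 in pAs, against 7.32 in MEFs. One of its probe sets stood at 7.68 in iAs, 6.79 in pAs and 9.43 in MEFs, and the other at 5.20 on all 3 arrays. The remaining H2A genes were H2ac12 and H2ac1. H2ac1 encodes a testis form of H2A and stood at 7.19 in iAs, 6.85 in pAs and 7.28 in MEFs, within 1.5-fold.

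H4 genes went both ways. All replication-dependent H4 genes encode the same protein, yet H4c17 was lower and H4c14 and H4c9 were higher in the astrocyte samples. H4c17 stood at 4.70 in iAs and 6.37 in pAs, against 7.81 in MEFs, so that MEFs exceeded iAs by at least 2.34-fold, and pAs by at least 2.37-fold. H4c9, which shares the 38-base run with H4c17, stood at 7.15 in iAs and 7.86 in pAs, against 6.02 in MEFs, with iAs above MEFs by at least 1.53-fold, and pAs by at least 2.51-fold. H4c14, the H4 gene of the Hist2 cluster, stood at 7.90 in iAs and 7.27 in pAs, against 6.20 in MEFs, with iAs above MEFs by at least 2.57-fold, and pAs by at least 1.67-fold. The third H4 gene counted as higher, H4c8, lay below the medians on all arrays, at 3.87 in iAs, 4.66 in pAs and 3.21 in MEFs. H4c12 stood at 12.42 in iAs and 12.74 in pAs, against 12.94 in MEFs, with differences of -0.52 and -0.20 that stayed within 1.5-fold. H4c1 and H4c2 had identical values on the 3 arrays, at 5.29 and 3.85, as did 20.1% of all probe sets.

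By older symbol, 16 core genes belong to the Hist1 cluster and 5 to the Hist2 cluster. In iAs, 5 of 16 Hist1 genes were lower and 2 higher than in MEFs, and 3 of 5 Hist2 genes were lower and 1 higher. In pAs, 5 of 16 Hist1 genes were lower and 3 higher, and 3 of 5 Hist2 genes were lower and 1 higher. Of all named genes, 10% were lower and 8.84% higher in iAs, and 11% lower and 12% higher in pAs. The counts of higher genes rest on few genes. The 3 lower Hist2 genes include H2ac20, which fell short of the threshold when counted from the medians.

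**Figure D2:**
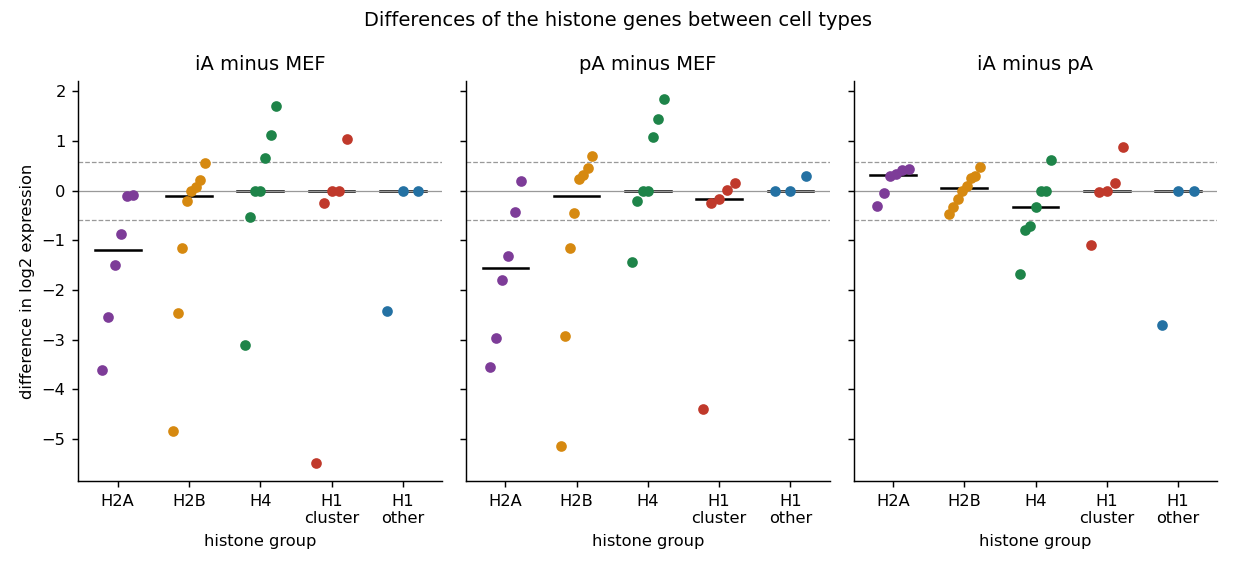
Differences in log2 expression of the 29 genes by histone group for iA minus MEF, pA minus MEF and iA minus pA. Each point is a gene, bars are medians and dashed lines mark 1.5-fold. The H2A points lie at or below 0.20 in both comparisons with MEFs, while H4 points lie on both sides.

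Among the 8 linker genes, H1f5 and H1f10 were lower in iAs and H1f3 was higher. In iAs, 2 lay below MEFs and 1 above, beside 10% of all named genes below and 8.84% above. In pAs 1 lay below and none above, beside 11% below and 12% above. With 8 genes, a single gene is a share close to these. The median difference was 0.00 in both. Those of the cluster and those outside it each held a gene that was lower in iAs, and 4 of the 8 linkers (H1f1, H1f6, H1f7 and H1f8) lay below the medians on all arrays. H1f6, H1f7 and H1f8 are forms of the germ line and stood at 5.33, 5.90 and 6.07 in both iAs and MEFs. H1f1, whose divergent neighbour is H4c1, stood at 4.26 in both astrocyte samples, against 4.51 in MEFs.

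H1f5, a replication-dependent linker whose promoter above holds AAACACA together with TATAAA, stood at 4.95 in iAs and 6.04 in pAs, against 10.44 in MEFs. The gap to MEFs was at least 14.4-fold for iAs, and at least 14.6-fold for pAs, and neither astrocyte level reached the median. H1f2, another linker of the cluster and one that cycling and resting cells express, stood at 11.44 in iAs, 11.46 in pAs and 11.44 in MEFs. The largest gap between its arrays was 0.02. H1f2 and H1f5 share CCAAT and AAACACA in their windows, and of the pair only H1f5 has TATAAA. H1f3, also of the cluster, stood at 7.30 in iAs and 6.42 in pAs, against 6.26 in MEFs, with iAs above MEFs by at least 1.70-fold. Its pA level differed from MEFs by 0.16.

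H1f10, the replication-independent linker, passed the threshold in iAs and not in pAs. It stood at 8.03 in iAs and 10.75 in pAs, against 10.46 in MEFs, all above the medians. The iA level was 5.35-fold below that of MEFs, and the pA level differed from MEFs by 0.29. Its promoter stretch, shown above, holds none of the motifs. A further probe set, shared by H1f10 and Gm5577, stood at 6.74 in iAs, 7.14 in pAs and 6.95 in MEFs, with a difference of -0.21 in iAs. The probe sets therefore differ in the size of the iA difference.

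Between the astrocyte samples, 3 core genes lay at least 1.5-fold below pAs in iAs and 1 above, beside 11.1% of all named genes below and 8.67% above. No H2A or H2B gene differed by 1.5-fold as the mean of its probe sets. For H2ac21, 1 probe set was 1.86-fold higher in iAs than in pAs, and the other had the same value on all arrays. H4c9 was 1.64-fold lower and H4c14 1.54-fold higher in iAs than in pAs, at the levels given above, and H4c17 and H4c8, with differences of -1.67 and -0.79, lay below the medians in both. Among linkers, H1f10 was 6.56-fold lower in iAs than in pAs, and H1f3 was at least 1.67-fold higher. H1f5 had a difference of -1.09 between levels that both lay below the medians.

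Histone genes without a probe set of their own were measured on 38 shared probe sets, 3 of which repeat the values of another with the same symbols, leaving 35. In iAs, 8 of the 35 lay at least 1.5-fold below MEFs and 10 above, beside 8.22% of all 41345 probe sets below and 11.1% above. In pAs, 9 lay below MEFs and 10 above, beside 8.94% below and 13.1% above. Between the astrocyte samples, 2 lay below in iAs relative to pAs and 7 above, beside 10% below and 8.56% above. Which of the listed genes gave the signal is not known, so no value below belongs to a single gene. Of the 29 members, 15 are also listed on a shared probe set, and genes of a family are nearly identical in their coding parts, so probes meant for 1 member may also have bound RNA of another.

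H2A is the family whose shared probe sets were most often lower, 5 of 9 in iAs and 6 of 9 in pAs. Of all probe sets, 8.22% were lower in iAs and 8.94% in pAs. The iA count includes a probe set that lay below the medians on all arrays, and the pA count includes that one and another. Those calls cannot be told from background. A probe set of H2ac18, H2ac19 and H2ac20 stood at 11.93 in iAs and 11.70 in pAs, against 12.82 in MEFs. The 7 probe sets that list the same 10 H2A genes had differences between -4.80 and 1.58 in iAs and between -5.54 and 0.96 in pAs. The lowest of them stood at 3.60 in iAs and 2.86 in pAs, against 8.40 in MEFs, at least 3.51-fold lower in iAs. The highest stood at 7.08 in iAs and 6.47 in pAs, against 5.50 in MEFs. This one was at least 1.46-fold higher in iAs when counted from the median, and 4 of the 7 lay below the medians on all arrays. Probe sets with the same symbols thus gave differences of both signs, and what sets them apart was not tested.

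Shared H2B probe sets went both ways. The pair that lists H2bc4, H2bc6 and H2bc8 was higher in both astrocyte samples, the first at 12.98 in iAs and 12.66 in pAs, against 11.51 in MEFs, and the second at 9.53 in iAs and 8.76 in pAs, against 7.09 in MEFs. In iAs they were 2.77-fold and 5.42-fold higher than in MEFs. A probe set that lists these genes together with the linker H1f4 stood at 8.81 in iAs and 9.74 in pAs, against 7.63 in MEFs. By comparison, a probe set of H2bc7, H2bc11, H2bc13 and H2bc15 stood at 12.67 in iAs and 12.38 in pAs, against 13.57 in MEFs, 1.87-fold lower in iAs. Another with these symbols stood at 8.0 in iAs and 7.51 in pAs, against 8.18 in MEFs, within 1.5-fold in iAs and 1.59-fold lower in pAs. The remaining one stood at 6.18 in iAs and 6.97 in pAs, against 5.26 in MEFs, and counted as higher in both, through levels below the medians in iAs and MEFs and by at least 1.35-fold in pAs. Probe sets that list these 4 genes were thus called in opposite directions in each comparison with MEFs. A probe set that lists 12 symbols, H2bc4, H2bc6 and H2bc8 among them, stood at 12.61 in iAs and 12.16 in pAs, against 13.58 in MEFs, 1.96-fold lower in iAs, 2.67-fold lower in pAs. A second one with the same 12 symbols stood at 7.78 in both iAs and pAs, against 7.73 in MEFs, within 1.5-fold. Both also list H2bc12.

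H3 was measured only in this way, on 12 probe sets. In iAs, 3 of them lay at least 1.5-fold above MEFs and none below, beside 11.1% of all probe sets above and 8.22% below. The same counts held in pAs, beside 13.1% above and 8.94% below. All 3 in each comparison were among the 8 that list the same 8 H3 genes, H3c2, H3c3, H3c4, H3c6, H3c7, H3c13, H3c14 and H3c15. The largest differences in iAs came from a probe set at 9.48 in iAs and 7.62 in pAs, against 6.68 in MEFs, and from another at 9.27 in iAs and 9.65 in pAs, against 6.95 in MEFs. The iA levels were 6.95-fold and 5.0-fold above those of MEFs. Another stood at 8.22 in iAs and 7.91 in pAs, against 6.13 in MEFs. The rest of the 8 lay within 1.5-fold of MEFs in both astrocyte samples. Among them is the probe set with the highest levels, at 11.07 in both iAs and pAs, against 10.77 in MEFs. The 4 that list H3c1, H3c8, H3c10 and H3c11 had differences between -0.40 and 0.12 in iAs.

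Of 5 shared H4 probe sets, 2 lay above MEFs in iAs and 1 below, beside 11.1% of all probe sets above and 8.22% below. In pAs 2 lay above and none below, beside 13.1% above and 8.94% below. Those that were higher are 2 of the 4 that list all 12 measured H4 genes and H4f16. One of the higher ones stood at 8.51 in iAs and 8.27 in pAs, against 3.79 in MEFs, at least 3.94-fold higher in iAs. The other higher one stood at 9.97 in iAs and 9.19 in pAs, against 6.81 in MEFs, 8.96-fold higher in iAs. The rest of the 4 stood at 4.23 and 4.71 in iAs, against 4.43 and 4.42 in MEFs. They lay within 1.5-fold of MEFs in both astrocyte samples and below the medians on all arrays. The probe set that was lower in iAs lists 6 H4 genes and stood at 8.13 in iAs and 8.27 in pAs, against 8.75 in MEFs.

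**Figure D3:**
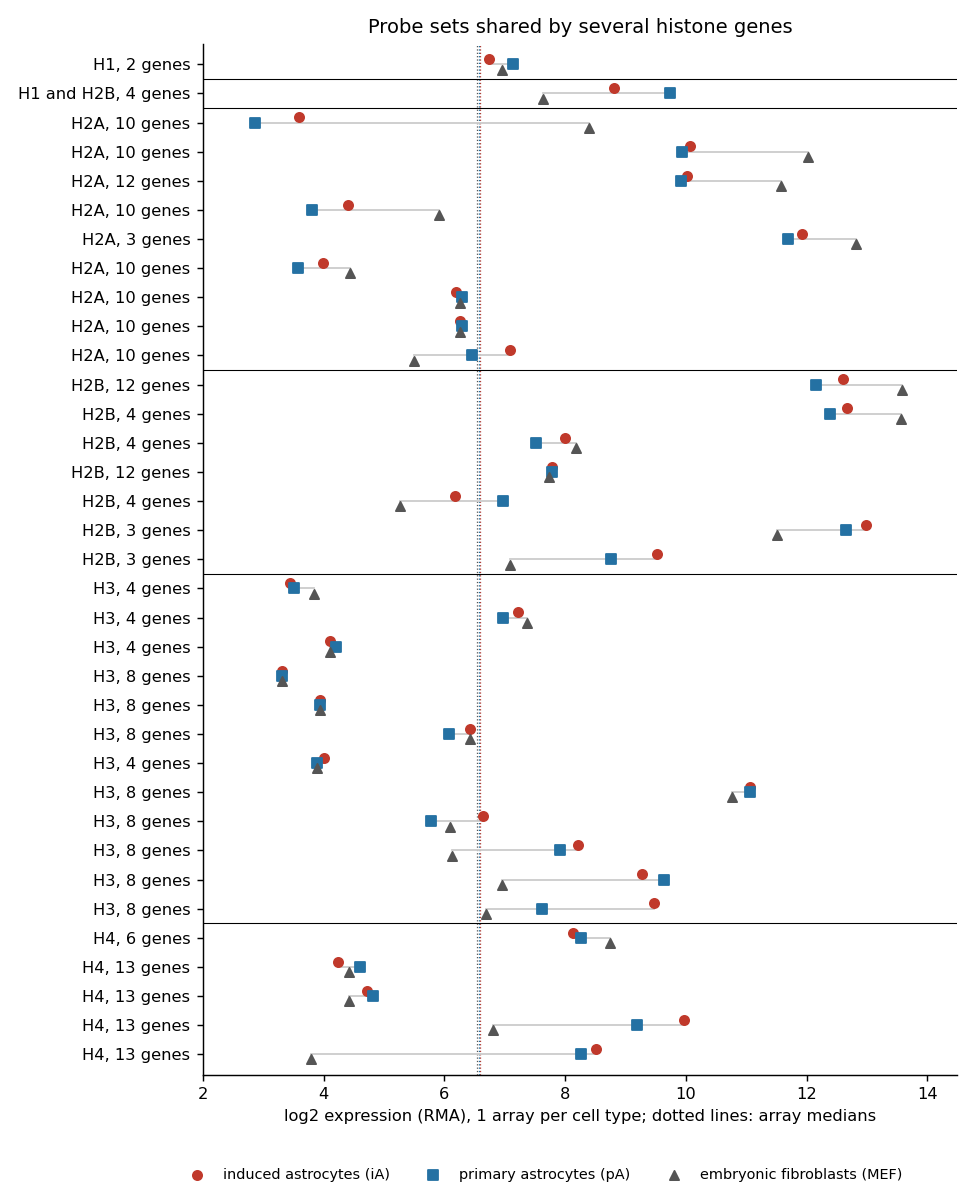
Log2 expression on the 35 distinct probe sets shared by several genes, named by family and number of genes listed, with 1 point per array and dotted lines at the array medians. Several H3 and H4 probe sets lie to the right in iAs and pAs, and most H2A ones lie to the right in MEFs.

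Genes that make, process and carry histones were taken from lists drawn from textbook knowledge. In the list of histone gene transcription and mRNA processing, 5 of 14 measured genes lay at least 1.5-fold below MEFs in iAs and 3 in pAs, with none above in either. Of all named genes, 10% lay below in iAs and 11% in pAs, with 8.84% and 12% above. Slbp, which binds the stem-loop of histone mRNAs, stood at 8.53 in iAs and 8.89 in pAs, against 9.52 in MEFs, 1.98-fold lower in iAs, 1.55-fold lower in pAs. Eri1, an exonuclease that trims the histone stem-loop, stood at 8.84 in iAs and 8.78 in pAs, against 9.82 in MEFs, 1.98-fold lower in iAs, 2.06-fold lower in pAs. Casp8ap2, the FLASH protein of the histone locus body, stood at 8.06 in iAs and 8.61 in pAs, against 8.98 in MEFs, 1.89-fold lower in iAs with a difference of -0.37 in pAs.

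Among histone chaperones and importers, 7 of 17 measured genes lay below MEFs in iAs with none above, while in pAs 5 lay below and 2 above. Of all named genes, 10% lay below in iAs and 11% in pAs. The 2 above in pAs are a share close to the 12% of all named genes. Chaf1b, a subunit of the CAF-1 complex that places new H3 and H4 behind the replication fork, stood at 7.64 in iAs and 7.13 in pAs, against 10.33 in MEFs, 6.43-fold lower in iAs, 9.15-fold lower in pAs. Asf1b, an H3 and H4 chaperone of dividing cells, stood at 8.20 in iAs and 7.28 in pAs, against 10.88 in MEFs, 6.42-fold lower in iAs, 12.1-fold lower in pAs. Nasp, a chaperone of H1 and H3, stood at 6.36 in iAs and 6.98 in pAs, against 8.29 in MEFs, at least 3.26-fold lower in iAs, 2.49-fold lower in pAs.

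Of 7 measured variant core histones outside the clusters, 4 lay below MEFs in iAs with none above, while in pAs 2 lay below and 1 above. Beside these, 10% of all named genes lay below in iAs, and 11% below and 12% above in pAs. H2ax, the variant phosphorylated at DNA breaks, stood at 9.49 in iAs and 9.74 in pAs, against 11.91 in MEFs, 5.37-fold lower in iAs, 4.49-fold lower in pAs. Cenpa, the H3 variant of centromeres, stood at 7.09 in iAs and 7.03 in pAs, against 9.13 in MEFs, 4.12-fold lower in iAs, 4.30-fold lower in pAs. H2az2, an H2A variant found at promoters, stood at 10.10 in iAs and 11.57 in pAs, against 10.35 in MEFs, with a difference of -0.26 in iAs, and was 2.32-fold higher in pAs.

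Genes of S phase were lower as well. Of 17 measured, 15 lay at least 1.5-fold below MEFs in iAs and 17 in pAs, beside 10% and 11% of all named genes. None lay above in either, and the median differences were -1.81 in iAs and -1.78 in pAs. The mean level of the list was 8.21 in iAs and 8.14 in pAs, against 10.13 in MEFs. Ccna2, which encodes cyclin A2, stood at 8.04 in iAs and 7.55 in pAs, against 11.76 in MEFs. Mki67, the marker of dividing cells, stood at 7.19 in iAs and 6.48 in pAs, against 10.55 in MEFs, and Mcm5, a subunit of the replicative helicase, at 7.66 in iAs and 7.75 in pAs, against 11.08 in MEFs. The part of cell division in the histone differences was not tested.

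**Figure D4:**
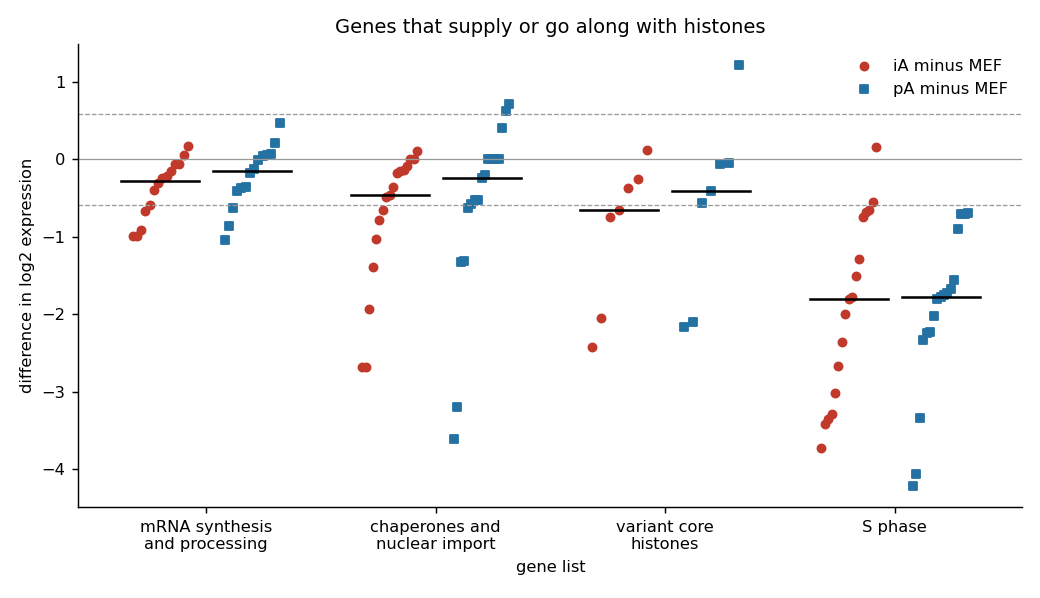
Differences in log2 expression of the genes of 4 lists for iA minus MEF and pA minus MEF. Each point is a gene, bars are medians and dashed lines mark 1.5-fold. The medians of the S phase list are -1.81 and -1.78, below those of the other lists.

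As a check of the cell types, 8 of 9 astrocyte markers were higher in pAs than in MEFs, whereas in iAs 2 were higher and 5 lower, and 7 of 9 fibroblast markers were lower in iAs and 8 of 9 in pAs. The mean log2 level over the astrocyte markers was 8.56 in iAs and 11.5 in pAs, against 8.45 in MEFs. Over the fibroblast markers it was 9.01 in iAs and 7.97 in pAs, against 11.6 in MEFs. Gfap stood at 11.72 in iAs, 13.26 in pAs and 7.80 in MEFs, and Aqp4 at 5.82, 12.20 and 6.80, so this astrocyte marker was below the median in iAs. Of 5 neuron markers, 3 were higher in iAs than in MEFs, with a mean level of 9.72 in iAs and 8.04 in both pAs and MEFs, and of 5 oligodendrocyte lineage markers, 2. No microglia or endothelial marker was higher in iAs, and 1 endothelial marker was higher in pAs. Xist stood at 6.64 in iAs and 11.45 in pAs, against 11.79 in MEFs, and the Y-linked Eif2s3y at 9.94 and 8.54, against 5.51. The labels do not give the sex of the animals, which cannot be told apart from the treatment. The part of these markers in the histone differences was not tested.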

How the data were processed

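Total RNA of 3 samples was hybridized to Affymetrix Mouse Gene ST arrays, 1 per cell type. The authors deposited log2 expression values per probe set, made by RMA in Partek Genomics Suite (background correction, quantile normalization and probe summary). The submitters' notes also name MAS5, and versions are not given in the sources used here. Values identical on all arrays were found for 20.1% of probe sets, some of them above the array medians, and the cause was not tested.

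Of 41345 probe sets, 23521 carry 1 symbol in the platform annotation, 1820 several and 16004 none. A gene is the mean log2 of its probe sets with 1 symbol. Symbols of all 29 members matched RefSeq (GRCm38.p6), which also gave older symbols and promoters. Differences were computed with Python 3.11.15, numpy 2.4.6 and pandas 2.3.3. The code that makes the calls was checked on simulated data with planted differences and an assumed noise. That check gives no error rate for the calls on these arrays. A gene was called at 1.5-fold, the threshold of the paper's methods. With 1 array per cell type no test was made.

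The members, classes, lists, motifs and alternatives were chosen with earlier results of these data known. Named are all linkers, the 3 lowest and 2 highest core genes of each family in either comparison with MEFs, core genes that were higher, and 3 genes of each list. H2ac21, H2bc21 and the shared probe sets were added after their values were seen. Alternatives were quantile normalization, centring, an offset of 32, a filter on low values, other folds, the brightest probe set, probe sets in place of genes and shared probe sets.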

Additional observations from a re-analysis of the deposited data

Results flagged for a closer look

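Asf1a, a chaperone of H3 and H4, moved in opposite directions in the astrocyte samples. It stood at log2 levels of 9.09 in iAs and 10.45 in pAs, against 9.74 in MEFs, with differences of -0.65 in iAs and 0.71 in pAs, each past 1.5-fold. With 1 array each, the difference between the effects was not tested. None of the 29 histone genes was past 1.5-fold in opposite directions.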

How the results depend on the processing

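No paired analysis was possible because each cell type has 1 array and no test was made. Under quantile normalization and under centring on brighter probe sets, the counts of core and linker genes stayed within 1.5 times those reported. An offset of 32 left 2 core genes higher in pAs than in MEFs and 0 higher in iAs than in pAs. The filter on low values left 2 core genes higher in pAs than in MEFs, and 1 core and 0 cluster linker genes lower in iAs than in pAs. Under this filter the median core difference was -1.33 in iAs over 12 genes and -1.32 in pAs over 13, where -0.11 and -0.20 held without it. Genes that passed only through a high MEF level had to be lower. At a log2 difference of at least 0.32, 5 core genes were higher in iAs than in pAs. At 2-fold, 1 was lower and 0 higher in iAs than in pAs. At 3-fold, 5 core genes were lower and 1 higher in iAs than in MEFs, 5 lower and 1 higher in pAs than in MEFs, and 1 lower and 0 higher in iAs than in pAs, with 0 cluster linkers lower. With the brightest probe set of each gene, and with probe sets in place of genes, 2 were higher in iAs than in pAs, the added one being H2ac21. Adding probe sets shared within the core class, repeats included, gave 51 probe sets, with 17 lower and 10 higher in iAs than in MEFs, 18 lower and 11 higher in pAs than in MEFs, and 8 higher in iAs than in pAs. With every probe set that lists a core gene, a setting chosen after seeing the data, 18 of 59 were lower and 13 higher in iAs than in MEFs, 19 lower and 14 higher in pAs than in MEFs, and 5 lower and 9 higher in iAs than in pAs. Among the 35 distinct shared probe sets of all families, 8 were lower and 10 higher in iAs than in MEFs, and 9 lower and 10 higher in pAs. Of all probe sets, 8.22% were lower and 11.1% higher in iAs, and 8.94% lower and 13.1% higher in pAs. Lower ones thus did not outnumber higher ones, while both were above these shares.

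The values have no detection calls, and 12 of the 29 members lay below the median on all arrays, so a small difference there cannot be told from background. H1f5, H2bc12 and H2ac15 rest on 1 probe set each, as does every member but H2ac21. H2bc12 and H2ac15 are also listed on shared probe sets, whose differences from MEFs in iAs were smaller. They were -0.97 and 0.05 for those that list H2bc12, and -1.56 for the one that lists H2ac15.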
